A study of Homo sapiens with 6 samples.

Results

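The genes of the hnRNP H/F family and of the related protein GRSF1 were examined as RNA targets in 2 eCLIP peak lists from HEK293T cells. The members were chosen by symbol, as HNRNPH1, HNRNPH2, HNRNPH3, HNRNPF and GRSF1, 5 of the 19940 protein-coding genes annotated, and a peak was counted where its midpoint lay in one of them on the same strand. By that rule 13 of 3660 SF3B4 peaks and 0 of 270 G4PID peaks belonged to them. HNRNPH1 held 11 of the 13, HNRNPH3 held 2, and HNRNPH2, HNRNPF and GRSF1 held 0.

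HEK293T cells derive from human embryonic kidney and express the large T antigen of SV40. In eCLIP, RNA crosslinked to an immunoprecipitated protein is sequenced and set against an input library. The series held 6 libraries, all from HEK293T cells and numbered as replicates: 2 of G4PID, a biotin ligase aimed at G-quadruplexes, the folds of G-rich nucleic acids, and precipitated through its HA tag, 2 of SF3B4, precipitated with an antibody to the protein, and 2 of input with no antibody. The labels' protocols describe transfection with a plasmid, for G4PID or for the untargeted ligase miniTurboID, and 30 min with 500 µM biotin. That text stands with all 6 libraries and does not settle if cells for SF3B4 and input were transfected too, and no library of the untargeted ligase was analysed here. Both lists carry a p-value and a fold per peak and nothing per library, so there is no measure of replicate spread, the depth of sequencing is unknown and no test was run. Every coordinate is on hg38, and a gene without a peak is not shown to be unbound.

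The hnRNP H/F proteins are nuclear RNA-binding proteins that contact runs of G through quasi-RRM domains and change splice site choice and polyadenylation of the transcripts they bind. GRSF1 has related domains and is known for its role in mitochondrial RNA processing. SF3B4 belongs to SF3b, the part of the U2 snRNP that settles on the branch point region shortly before the 3' splice site, the acceptor, of each intron. Many genes for splicing regulators make transcripts that keep an intron or that carry an early stop and fall to nonsense-mediated decay.

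The members differ in how many introns they offer. HNRNPH1 (ENSG00000169045.17, chromosome 5, 179614178 to 179634784, minus strand) has 13 introns in its principal transcript HNRNPH1-203, whose 1347 nt of coding sequence are spread over 12 exons. HNRNPH3 (chromosome 10, 68331174 to 68343191, plus strand) has 9 introns in HNRNPH3-201, and GRSF1 (chromosome 4, 70815782 to 70839945, minus strand) has 9 in GRSF1-201. HNRNPH2 (chromosome X, 101408295 to 101414133, plus strand) and HNRNPF (chromosome 10, 43385617 to 43409166, minus strand) each have their whole coding sequence, 1347 and 1245 nt, in 1 exon. Their introns, 1 in HNRNPH2-201 and 3 in HNRNPF-207, lie before it. Peaks were thus found in 2 of the 3 members with many introns and in neither of those with an undivided coding sequence. Of the 5 annotated pseudogenes of the family, 0 overlapped a peak of either list.

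An SF3B4 peak was present in 8.88% of all protein-coding genes and a G4PID peak in 0.496%. The 2 of 5 members with an SF3B4 peak stand against the first share, and the 0 of 5 with a G4PID peak against the second. Among 22 other hnRNP genes, 15 (68.2%) had an SF3B4 peak, 60 peaks in all with a median of 3 per bound gene. By the log2 fold over input of their highest peak, the first were HNRNPU, a nuclear matrix-associated protein (6.68, 11 peaks), HNRNPA1, a splicing repressor (5.97, 8 peaks), HNRNPA3 (5.88, 5 peaks) and HNRNPA2B1 (5.87, 5 peaks). PTBP1 (7 peaks) and HNRNPL (6 peaks) had more peaks than HNRNPA3 and HNRNPA2B1, with lower highest folds of 5.24 and 5.53. PCBP2, a poly(C)-binding protein, alone of the 22 had a G4PID peak (log2 fold 6.07). Of 12 transcripts known for splicing or processing by hnRNP H or F, 4 had an SF3B4 peak: EWSR1 (4 peaks, highest log2 fold 5.86), SRC (1 peak, 4.69), ARAF (2 peaks, 4.34) and MADD (1 peak, with the lowest fold of the 4). MCL1, an apoptosis regulator, had the 1 G4PID peak of that list (log2 fold 4.97).

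**Figure D1:**
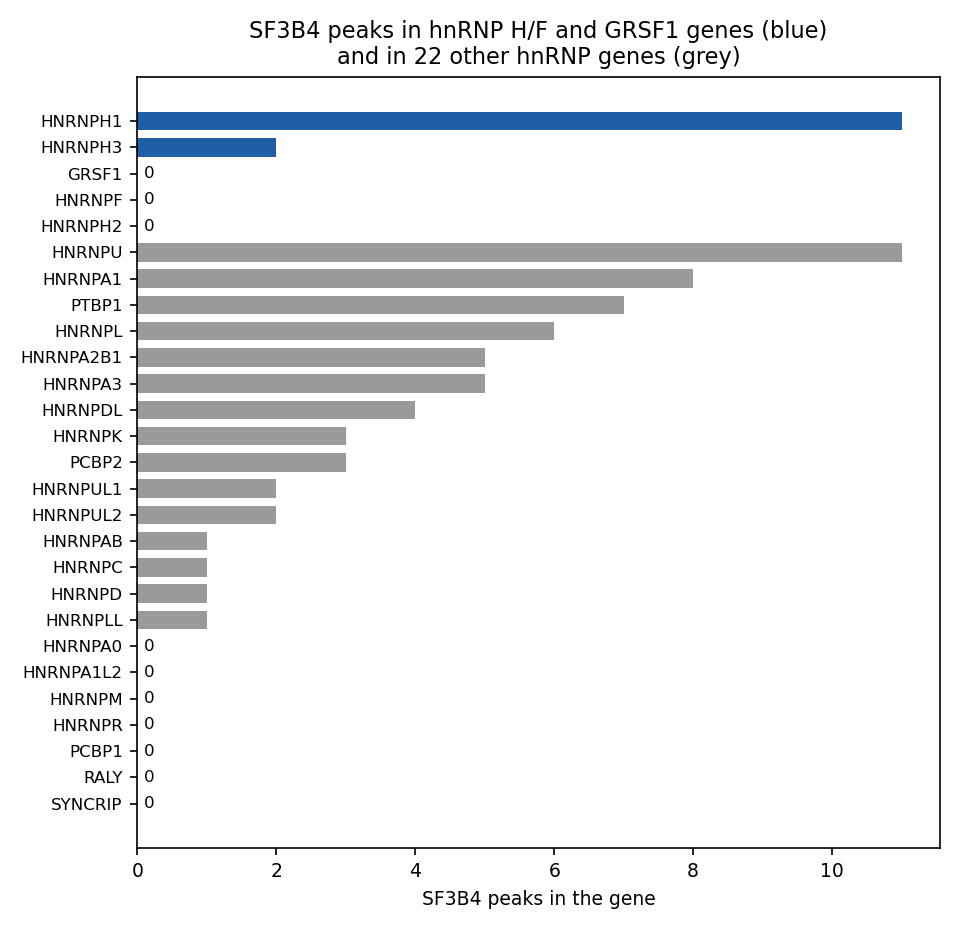
SF3B4 peaks per gene, on a linear axis from 0, in the hnRNP H/F and GRSF1 genes (blue) and in 22 other hnRNP genes (grey). HNRNPH1 and HNRNPU share the longest bar at 11 peaks, HNRNPH3 has 2, and HNRNPH2, HNRNPF and GRSF1 have 0.

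HNRNPH1 was among the genes with the most SF3B4 peaks. Its 11 peaks gave it rank 4, tied with DGCR8 and HNRNPU, among 1884 genes with a peak, behind FANCA (18 peaks), CAD and PCNX3 (12 each). With HNRNPH1 counted, 6 genes (0.318%) had 11 or more. The median of the other genes with a peak was 1. By its highest log2 fold, 7.13, HNRNPH1 had rank 3 among genes, below RNU2-70P, a copy of U2 small nuclear RNA (7.60), and AC024901.1 (7.26). The HNRNPH3 peaks stood lower, with a highest log2 fold of 5.15 and rank 242. Each fold and p is the authors' value for the peak, and RNA amount was not measured here, so an abundant precursor RNA and a strong contact cannot be told apart in any of these counts.

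The peaks are numbered from the 5' end of each gene. Peak 1 of HNRNPH1 (179621412 to 179621484) had a log2 fold of 5.75. Peak 2 (179621011 to 179621147), at 137 nt the widest, had the lowest log2 fold of the gene, 3.03, at rank 3596 of 3660. Peak 3 (179619429 to 179619466) stood at 3.58. The middle of the gene held peak 4 (179618465 to 179618491, log2 fold 4.64), peak 5 (179618368 to 179618424, 4.23) and peak 6 (179618078 to 179618109, 5.73). Peaks 7 (179617099 to 179617154, log2 fold 3.16) and 8 (179616935 to 179616992, 3.33) had low folds again. Peaks 9 (179616493 to 179616525, log2 fold 4.01) and 10 (179616235 to 179616305, 5.26) followed in the next intron. Peak 11 (179614967 to 179615012), before the last exon, had the highest log2 fold, 7.13, rank 3 of 3660. High and low folds were thus interspersed along the gene. The 13 member peaks had a median log2 fold of 4.23, and the rest of the SF3B4 list 3.93. At a log2 fold of at least 4, 8 of the 13 remained.

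**Figure D2:**
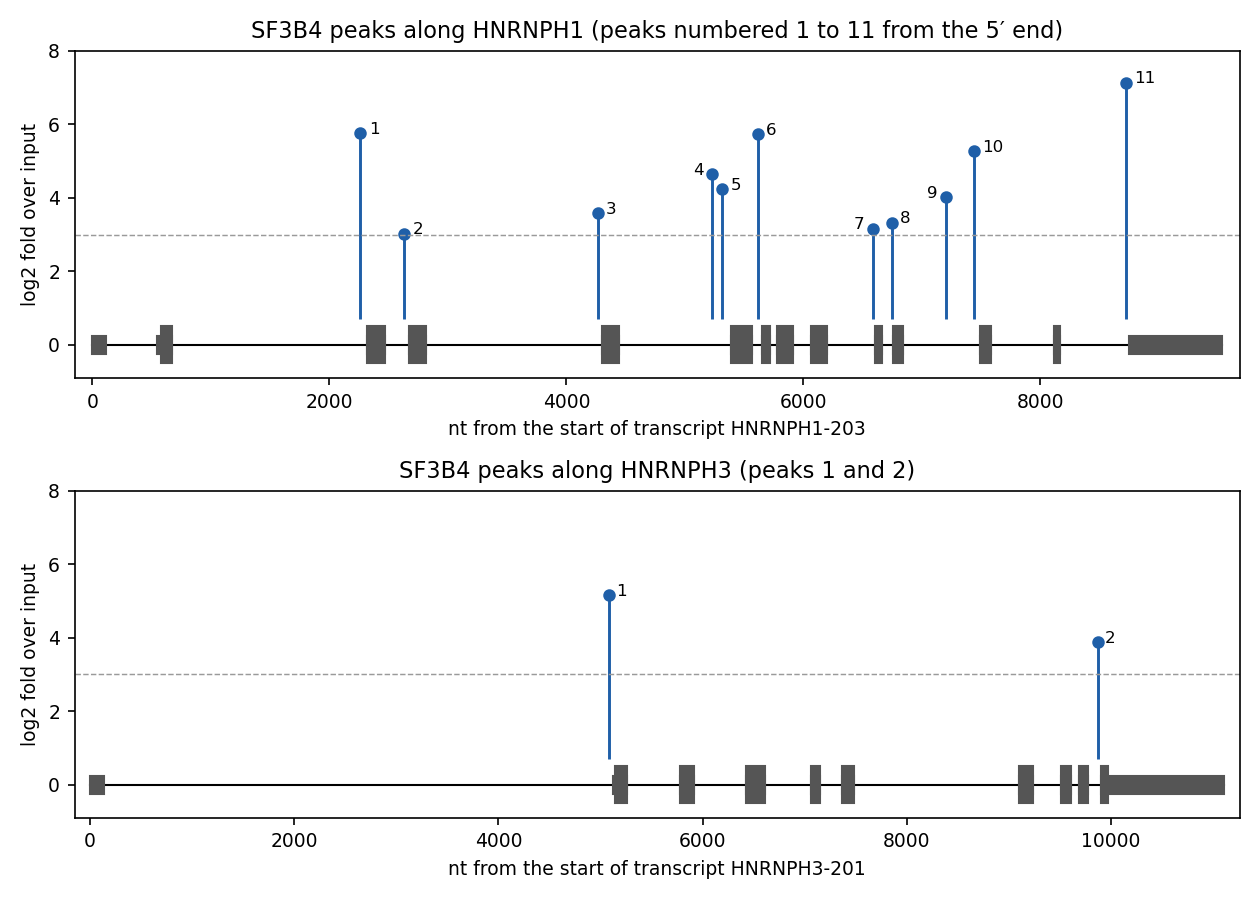
SF3B4 peaks along HNRNPH1 (upper) and HNRNPH3 (lower), with the log2 fold over input of each peak as the height of its stem and the exons of 1 principal transcript below (tall boxes coding, low boxes noncoding) against distance in nt from the transcript's start. The dashed line marks a log2 fold of 3, and the stems stand before exons rather than on them, with the highest, 7.13, before the last exon of HNRNPH1.

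The deposited p-values give no full order of these peaks. The −log10 p of peaks 4, 6 and 11 was 15.7, which equals −log10 of 2.2e-16, the smallest p that the R language prints, and each shared it with 299 other SF3B4 peaks. It is read here as a limit and not as a measured p, so these peaks cannot be ordered by p among peaks at 15.7 or above. The value stood at 4 of 13 member peaks (30.8%) and at 8.12% of the rest of the list. Peak 5 stood at 400, the highest value in the list, which 14 other peaks shared and which may be a limit too, and its fold had rank 1397. The −log10 p of peaks 2, 8, 1 and 10 was 70.9, 60.8, 56.4 and 55.0. All 11 HNRNPH1 peaks lay at 15.7 or above, where the rest of the list had a median of 8.92.

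The 2 HNRNPH3 peaks lay at the ends of its first and last introns. Peak 1 (68337128 to 68337191, log2 fold 5.15, −log10 p 15.7) had its midpoint 40 nt before exon 2, at the end of an intron of 4982 nt. Peak 2 (68341930 to 68341965, log2 fold 3.88, −log10 p 6.63) lay 31 nt before the last exon, in an intron of 126 nt. The 7 introns between had no peak.

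All 13 member peaks had their midpoint in an intron and within 500 nt of a splice site when only the basic transcript set was used. In the rest of the list 84.9% did. With all annotated transcripts, 11 of 13 member midpoints (84.6%) fell in an exon of some transcript, and 49.4% of the rest. A midpoint 10 to 60 nt upstream of the nearest acceptor was found for 9 of 13 member peaks (69.2%, 95% Wilson interval 42.4 to 87.3%) and for 71.0% of the rest (69.5 to 72.5%), so in this the members were near the list's usual share. These intervals cover counting error only, and peaks of 1 gene share their RNA. The exceptions all lay in HNRNPH1: peak 8 at 5 nt, peak 5 at 73 nt, peak 4 at 155 nt and peak 9 at 291 nt. Peaks 4 and 9 were each the second peak of an intron that also had one at its acceptor, with 40 nt between peaks 4 and 5 and 187 nt between peaks 9 and 10.

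**Figure D3:**
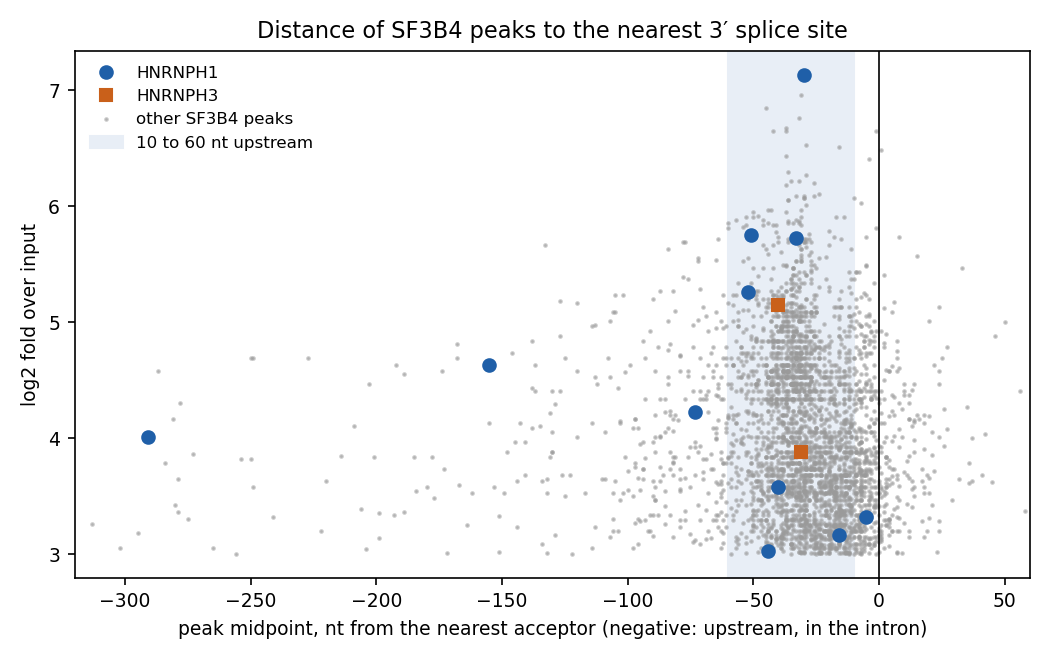
Log2 fold over input of SF3B4 peaks against the position of the peak midpoint from the nearest acceptor, in nt, negative in the intron, for HNRNPH1 (blue circles), HNRNPH3 (orange squares) and all other peaks in the plotted range (grey). Both HNRNPH3 peaks and 7 of 11 HNRNPH1 peaks lie in the shaded stretch 10 to 60 nt upstream, and peaks 4 and 9 stand apart at 155 and 291 nt.

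The letters at 5 bound HNRNPH1 acceptors, from the highest to the lowest fold of the gene, and at the stronger HNRNPH3 acceptor are shown to place the peaks. Each line holds the last 90 nt of an intron and the first 10 nt of the next exon, 5' to 3' on the gene's strand, with the bases of the deposited peaks in capitals. The letters come from GENCODE release 29 transcripts that cover the intron.
HNRNPH1 intron 13 (chr5:179614950-179615049, minus): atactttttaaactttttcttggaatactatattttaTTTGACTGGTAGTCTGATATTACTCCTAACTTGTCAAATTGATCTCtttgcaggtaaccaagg
HNRNPH1 intron 11 (chr5:179616209-179616308, minus): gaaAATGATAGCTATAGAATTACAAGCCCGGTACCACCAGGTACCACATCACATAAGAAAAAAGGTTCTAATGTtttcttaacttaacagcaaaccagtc
HNRNPH1 intron 5 (chr5:179618314-179618413, minus): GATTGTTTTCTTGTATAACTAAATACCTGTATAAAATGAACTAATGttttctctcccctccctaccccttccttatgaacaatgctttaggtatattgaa
HNRNPH1 intron 4 (chr5:179619398-179619497, minus): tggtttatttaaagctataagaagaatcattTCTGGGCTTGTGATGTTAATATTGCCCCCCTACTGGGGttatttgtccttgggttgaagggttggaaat
HNRNPH1 intron 3 (chr5:179621026-179621125, minus): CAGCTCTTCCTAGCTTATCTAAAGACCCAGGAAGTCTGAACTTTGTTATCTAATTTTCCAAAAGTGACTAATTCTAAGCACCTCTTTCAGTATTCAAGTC
HNRNPH3 intron 1 (chr10:68337109-68337208, plus): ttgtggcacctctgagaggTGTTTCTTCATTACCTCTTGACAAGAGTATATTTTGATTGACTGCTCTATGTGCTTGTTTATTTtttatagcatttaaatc

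In introns 13, 11 and 4 of HNRNPH1 and intron 1 of HNRNPH3 the peak ends before the intron's AG, and in intron 3 it runs across the AG into the exon. In intron 5 a C- and T-rich stretch separates peak 5 from the AG. The pyrimidine share of the last 20 nt ran between 55% and 85% over the 8 bound HNRNPH1 introns whose end is of known sequence. Its median was 62.5%, where 1347 bound introns of other genes with a known end had a median of 70%. The motif CTNAC, a short form of the branch point consensus in which N is any base, was searched on the sense strand of the last 60 nt. It stood in 2 of those 8 introns, in intron 13 with its A 25 nt before the exon and inside peak 11, and in intron 10 with its A 28 nt before the exon and inside peak 8. It stood in 33.5% of the 1299 bound introns of other genes in which those 60 nt were known. A match is a matter of letters and does not locate the branch point.

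Peaks 7 and 8 lie at a duplicated acceptor. The last 11 nt of introns 9 and 10 and the first 58 nt of the exons that follow, of 60 and 90 nt, are identical, 69 nt in all, shown with the exon bases in capitals.
HNRNPH1 ends of introns 9 and 10 (chr5:179617053-179617121 and chr5:179616901-179616969, minus): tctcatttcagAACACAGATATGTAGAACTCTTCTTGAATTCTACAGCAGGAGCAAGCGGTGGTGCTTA
HNRNPH1 intron 9 with peak bases in capitals (chr5:179617101-179617200, minus): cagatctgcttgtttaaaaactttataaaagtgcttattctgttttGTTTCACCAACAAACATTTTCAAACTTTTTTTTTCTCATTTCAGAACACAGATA
HNRNPH1 intron 10 with peak bases in capitals (chr5:179616949-179617048, minus): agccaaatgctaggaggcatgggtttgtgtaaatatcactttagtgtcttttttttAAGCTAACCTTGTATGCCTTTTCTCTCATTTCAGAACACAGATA

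Of peak 7, 23 of 56 nt lay in the repeat, and of peak 8, 35 of 58 nt. Their midpoints, 16 and 5 nt before the exon, were the 2 closest to an acceptor among the members. Reads that lie wholly inside the repeat match both places, and the sources used here do not say how such reads were assigned, so the split between these peaks is uncertain.

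SF3B4 peaks stood at most introns of HNRNPH1. A peak midpoint lay up to 100 nt upstream of the acceptor in 9 of 13 introns (69.2%), all but introns 1, 7, 8 and 12, and in 2 of 9 introns of HNRNPH3. Of 27180 introns, counted in 1 principal transcript per protein-coding gene with an SF3B4 peak, 10.5% had one. Among 1605 such genes with at least 5 introns the median share was 10%, and 7 genes other than HNRNPH1 reached as high a share: CSNK1D (7 of 8), RACK1 (6 of 7), RPS4X (5 of 6), RPS18 and RPS19 (4 of 5 each), HNRNPA1 (7 of 9) and EIF4A2 (7 of 10). With at least 10 introns, EIF4A2 was the 1 other gene to do so. The 9 bound introns of HNRNPH1 were 84 to 1639 nt long with a median of 586 nt, and the 4 unbound ones 56 to 530 nt with a median of 289.5 nt, so the lengths overlapped. The shortest intron, of 56 nt, had no peak. The exon after the intron had a length divisible by 3 in 6 of the 9 bound and 0 of the 4 unbound introns of HNRNPH1. In HNRNPH3 the counts were 1 of 2 bound and 3 of 7 unbound, and in other genes the shares were 37.7% and 38.1%. These are whole exon lengths. In HNRNPH1 the exons after introns 1 and 12, both unbound, are partly noncoding, and that after bound intron 13 is wholly so. The counts thus do not measure reading frame.

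Most of the bound HNRNPH1 introns are kept in an annotated retained-intron transcript. GENCODE lists 50 HNRNPH1 transcripts, of which 26 are coding, 16 retained-intron and 4 decay forms, where other protein-coding genes with an SF3B4 peak have a median of 11 transcripts and 3 retained-intron forms. An exon of a retained-intron transcript spanned 6 of 9 bound introns and 2 of 4 unbound ones. In other genes the shares were 21.9% of 2853 bound and 7.76% of 24305 unbound introns. With exons of any transcript type the order in HNRNPH1 turned, at 6 of 9 bound and 3 of 4 unbound introns, while other genes had 25.4% and 9.15%. Intron 10 was spanned by 5 retained-intron transcripts, introns 3, 9 and 11 by 2 each, and introns 5 and 13 by 1 each. Bound introns 2, 4 and 6 were spanned by none. The midpoint of 10 of 11 HNRNPH1 peaks, all but peak 6, lay in an exon of a retained-intron transcript, and that of 36.1% of the rest of the list. The annotation comes from other RNA sources, so it does not show which of these transcripts HEK293T cells made.

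Transcript HNRNPH1-227 gathers most of this overlap. It runs over the 3' part of the gene (179614180 to 179620032) in 4 exons, keeps introns 5, 9, 10, 11, 12 and 13, and covers the midpoints of 8 of the 11 peaks. HNRNPH1-206 keeps introns 10 and 11 and covers 5 midpoints, HNRNPH1-205 keeps introns 9 and 10 and covers 3, and HNRNPH1-212 and HNRNPH1-223 keep intron 3 with peak 2. Peak 1 lies over the first exon of HNRNPH1-235, a retained-intron form that starts inside intron 2. HNRNPH3 has 0 retained-intron and 0 decay transcripts among 11. Of its 9 processed transcripts, 4 keep introns 2 and 3 (HNRNPH3-205 and HNRNPH3-208) or 7 and 8 (HNRNPH3-206 and HNRNPH3-210), none of which held a peak, and peak 1 lies over the first exon of HNRNPH3-208. GRSF1 has 1 of each kind among 8 transcripts, and HNRNPH2 and HNRNPF have none of either.

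**Figure D4:**
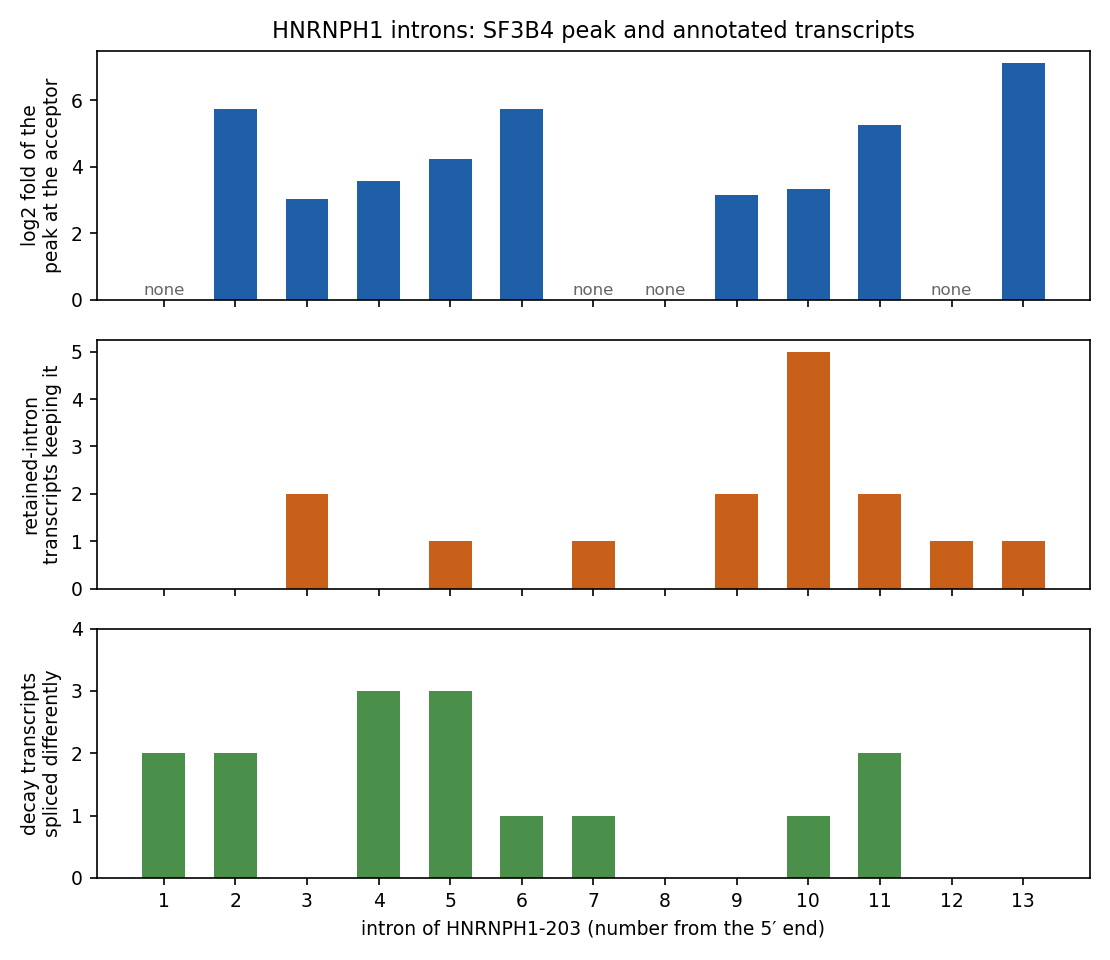
For each of the 13 introns of HNRNPH1-203, the log2 fold over input of the SF3B4 peak within 100 nt upstream of its acceptor (top, "none" where there is no peak), the number of annotated retained-intron transcripts with an exon over the whole intron (middle) and the number of decay transcripts that span the intron but splice it otherwise (bottom). Introns 4 and 5, each bound, have the most such decay transcripts, 3, and intron 10 the most retained forms, 5.

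Peaks 3 and 5 flank an exon that 3 of the 4 decay transcripts of HNRNPH1 leave out. Exon 5 (179619269 to 179619407) is 139 nt long, so leaving it out shifts the reading frame. It is skipped in 9 of the 50 transcripts: in 3 decay forms (HNRNPH1-211, HNRNPH1-218 and HNRNPH1-236), 4 coding forms, 1 retained-intron form and 1 processed form. Those 3 decay forms have GENCODE support level 5 and HNRNPH1-219 has level 4, where a lower level is better. Counts of decay transcripts in this gene thus rest on weakly supported annotation. Its own acceptor had peak 3 (log2 fold 3.58, 40 nt upstream), and the acceptor of the next exon had peak 5 (4.23, 73 nt upstream), with peak 4 (4.64) above it in the same intron. The acceptor of exon 6 is used both when exon 5 is included and when it is skipped, and 19 transcripts use it, while 13 use that of exon 5. A bound intron was absent from at least 1 decay transcript that spans it in 6 of 9 cases in HNRNPH1 and an unbound one in 2 of 4, where other genes had 20.0% and 12.2%. The other decay form, HNRNPH1-219, ends before exon 5. Both it and HNRNPH1-211 hold an exon of 134 nt inside intron 2 (179621843 to 179621976). No SF3B4 peak lay near its 5' end, the nearest midpoint being 528 nt away, and peak 1 lies between that exon and exon 3.

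Exon 5 has a counterpart of the same length in HNRNPH3, exon 3 (chromosome 10, 68337858 to 68337996), which is skipped in 2 processed transcripts. Laid side by side without gaps, the 2 exons agree at 126 of 139 bases (90.6%). Their letters are shown with runs of 3 or more G, the kind of sequence that hnRNP H and F bind, in capitals.
HNRNPH1 exon 5 (chr5:179619269-179619407, minus): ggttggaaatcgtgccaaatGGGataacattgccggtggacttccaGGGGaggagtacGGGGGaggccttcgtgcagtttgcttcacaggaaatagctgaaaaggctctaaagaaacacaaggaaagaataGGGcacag
HNRNPH3 exon 3 (chr10:68337858-68337996, plus): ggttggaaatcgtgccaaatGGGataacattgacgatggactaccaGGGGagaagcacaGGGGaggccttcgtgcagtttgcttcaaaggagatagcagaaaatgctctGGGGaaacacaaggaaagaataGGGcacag

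The HNRNPH1 exon holds 4 such runs and the HNRNPH3 exon 5. The SF3B4 peaks around them differ: both introns that flank the exon have a peak within 100 nt of their end in HNRNPH1, and neither does in HNRNPH3. Most introns of HNRNPH3 had no peak, however, with 2 of 9 bound beside 9 of 13 in HNRNPH1. In GRSF1, exon 5 (136 nt) is left out of the decay transcript GRSF1-205, and no intron of GRSF1 held a peak.

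Runs of G stood near many of the member peaks, at a share below that of the searchable rest of the list. Of 11 member windows of known sequence, each a peak with 50 nt on either side, 7 (63.6%, 95% Wilson interval 35.4 to 84.8%) held 3 or more G in a row in sense, and 86.3% of 1518 searchable windows of the rest did (84.5 to 87.9%). For runs of 3 or more C the count was again 7 of 11, beside 85.8% of the rest. With runs of 4 or more G the count was 4 of 11 (36.4%), beside 52.1% of the rest, and without flanks it was again 4 of 11, beside 62.4%. The member windows were poorer in G and C, with a median GC content of 37.8% (27.6 to 45.0%) beside 54.3% in the rest (23.8 to 80.7%). Member peaks were also narrower, with a median width of 56 nt over all 13, beside 71 nt over the 3647 other SF3B4 peaks. The part of GC content or width in the lower share was not tested. The window of peak 3 held the most runs, 5, of which 2 lay in the peak as deposited. The windows of peaks 4, 5, 7 and 11 held 0. Those of peak 6 and of HNRNPH3 peak 2 could not be searched, because no annotated transcript covers them. Of all SF3B4 windows, only 41.8% were covered and so searchable. The shares and GC content given for the rest describe that part of the list and not the whole.

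The second peaks of introns 5 and 11, which lie away from the acceptor, are shown with 20 nt on either side and the peak in capitals.
HNRNPH1 peak 4 (chr5:179618445-179618511, minus): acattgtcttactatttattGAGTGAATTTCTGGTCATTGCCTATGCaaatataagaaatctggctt
HNRNPH1 peak 9 (chr5:179616473-179616545, minus): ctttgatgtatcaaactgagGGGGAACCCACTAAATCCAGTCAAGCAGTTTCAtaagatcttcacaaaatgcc

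Peak 9 opens within a run of G, and peak 4 and its flanks hold no run of 3 or more G.

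A quadruplex motif has 4 runs of 3 or more G spaced by 1 to 7 nt. It stood in 0 of the 11 member windows (95% Wilson interval 0 to 25.9%) and in 4.48% of the searchable windows of the rest. In the known sequence of the 5 genes, which is 46.0% of HNRNPH1 and 13.8 to 45.3% of the others, 5 motifs were found on the sense strand, all in HNRNPH1. They lie in introns 1 and 2, with midpoints between 471 and 789 nt after the start of HNRNPH1-203. Each is at least 1428 nt from any SF3B4 peak. Of the other protein-coding genes with an SF3B4 peak, 55.1% held at least 1 such motif in their known sequence. The first and the last of the 5 are shown, with all bases in capitals. The search let a spacer be any base, G included. In motif 1 the opening 7 G thus count as 2 runs with 1 G between them.
HNRNPH1 motif 1 (chr5:179623229-179623250, minus): GGGGGGGCGGTGCGGGCCCGGG
HNRNPH1 motif 5 (chr5:179622912-179622931, minus): GGGCCGGGTGGGACCCGGGG

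No G4PID peak lay at these motifs or elsewhere in the family. The spliced principal transcripts carry 9.90 to 12.8 runs of 3 or more G per kb, lowest in GRSF1 and highest in HNRNPH3, with 11.8 in HNRNPH1, 12.6 in HNRNPH2 and 12.7 in HNRNPF. HNRNPH1 lies inside the range of the 3 members without a peak, and HNRNPH3 just above it.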

How the data were processed

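RNA bound by G4PID and by SF3B4 was mapped by eCLIP in HEK293T cells, with 2 libraries each and 2 of input. Cutadapt 3.4 and STAR 2.7.0d were used, per the submitters' processing notes, which list hg19 and hg38. The sources used here name no peak caller, filter or way of joining replicates, and do not say whether libraries came from separate cultures. The lists deposited by the authors, 1 per antibody and on hg38, have no header, so from their order and range the columns were taken as the authors' −log10 p-value and log2 fold over input.

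Peaks were assigned by midpoint and strand to GENCODE release 29 genes, coding first and exon before intron. 1 principal transcript per gene (best APPRIS, support level, coding length) numbered the introns. Letters were rebuilt from 25132 annotated transcripts with 0 disagreeing bases. The assignment was tested on 200 simulated peaks placed upstream of annotated acceptors. The right gene was recovered for 195 of them and the planted distance to the acceptor for 197. Intervals are 95% Wilson intervals. Python 3.11.15, numpy 2.4.6, scipy 1.17.1 and matplotlib 3.10.9 were used.

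The members, gene lists and alternatives were chosen with earlier results of these data known. The text names every member and each of its peaks, and the 4 genes with the highest fold in each of 2 gene lists. Genes that neighbour a member in a ranking are named by the ranking. PTBP1 and HNRNPL were named after their values were seen. Comparisons are descriptions, with no test, since no value per library was used.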

Additional observations from a re-analysis of the deposited data

How the results depend on the processing

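With any overlap of at least 1 nt in place of the midpoint the SF3B4 count remained 13 peaks, and with −log10 p of at least 10 it was 12. With a log2 fold of at least 4 it was 8. The 2 peaks of the repeated acceptor counted once, an alternative added after the data were seen, gave 12 peaks and 10 bound acceptors. The number of members with a peak stayed 2 for SF3B4 and 0 for G4PID under the overlap, fold and p settings. The exonic share of the member peaks was 0% with the basic transcripts and 84.6% with all transcripts. Exons of retained-intron and processed forms then count, and for peak 1 of HNRNPH1 also an exon of a coding form. The share 10 to 60 nt upstream was 46.2% when measured at either end of the peak and 62.5% with a log2 fold of at least 4. Bound acceptors were 10 within 60 nt and 11 with any part of a peak. The bound introns in a retained-intron form were 54.5% by whole introns and 72.7% by peak midpoint. No paired analysis was possible because the lists hold no value per library, and for the same reason no replicate could be left out. The depth is unknown, and the sequence of 2 of 13 member peaks was not searched.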
